A study of Homo sapiens with 6 samples.

Results

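The genes described here encode the machinery that tells mTORC1, the growth kinase of the lysosome, whether amino acids are at hand. They are the 3 subunits of GATOR1 (DEPDC5, NPRL2 and NPRL3), the 5 subunits of GATOR2 (MIOS, WDR24, WDR59, SEH1L and SEC13) and 2 amino acid sensors that act on GATOR2 (CASTOR1 and SESN2). These 10 genes were picked by name from the pathway, with earlier results of these data known, out of 60671 annotated genes in the expression matrix. All 10 were among the 13861 genes tested.

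GATOR1 is an inhibitor of mTORC1: it turns off RRAGA and RRAGB, the small GTPases that hold mTORC1 at the lysosomal surface. GATOR2 counteracts GATOR1. When leucine is scarce SESN2 binds GATOR2, when arginine is scarce CASTOR1 does, and in both cases the brake on mTORC1 is set; the amino acid itself releases the sensor. In solid tumors the core is often poorly perfused, and nutrients tend to be scarcer there than at the rim.

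RNA was sequenced from xenografts of the line MDA-MB-231, which derives from a human triple-negative breast tumor and carried no further edit (genotype WT). The cells had been injected with Matrigel into the mammary fat pads of female NSG mice, an immunodeficient strain, bought at 6 to 8 weeks of age, and no sample received another agent. The 2 groups were the tumor core (TC, n = 3) and the tumor margin (TM, n = 3), and the study compared these zones to find how metabolism differs within a tumor. NSG mice lack mature T, B and NK cells but keep other host cells, and every sample comes from 1 cell line. Whether a core and a margin sample with the same number came from the same mouse is not stated, so p-values measure the spread between these samples only.

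All values are TPM, a measure of transcript abundance scaled to the same total in each library, which is corrected for transcript length and can be compared between genes. A difference is the mean of log2(TPM + 1) in TC less that in TM. Differences were tested with limma, a linear model fitted across all tested genes, and a gene was called at a Benjamini-Hochberg adjusted p under 0.05. The sequencing depth behind TPM is unknown. In such bulk tissue, fewer cells of a type and less RNA per cell cannot be told apart.

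The samples carried most of the marks sought for the line: VIM ranged from 3797 to 5283 TPM, EGFR from 42.1 to 62.8 TPM, and ESR1 did not exceed 0.13 TPM. ERBB2, sought as a marker low in the line, was at 22.31 to 24.07 TPM in TC and 30.82 to 40.73 TPM in TM, without overlap. Library measures moved with the zones: TC samples had 21063 to 21942 genes above 0 and TM samples 22678 to 23216, and mitochondrially encoded genes took 6.08% to 8.82% of TPM in TC and 9.23% to 11.1% in TM. The part of these measures in the differences below was not tested beyond a refit without the mitochondrially encoded genes. That refit moved the median difference from -0.25 to -0.30 for the 10 genes and from -0.14 to -0.18 for all tested genes. It called 0 of the 10, with the smallest adjusted p at 0.077 for NPRL3 by limma. TM replicate 3 stood apart from the others: loci outside the annotation summed to 21.1 TPM there, against 1574 to 2643 TPM elsewhere, and its deposited column alone summed to less than 1000000 TPM. Over the tested genes the difference had a median of -0.14 with TPM as deposited, but 0.049 after median-of-ratios rescaling, 0.014 after quantile normalization and 0.014 with the trend over GC and length removed. By limma 19 of the 13861 genes were called, which is 0.137%. Values given below relative to the median of all genes use the deposited scaling.

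The 10 genes spanned a wide range of expression. SEC13 stood at 213.6 TPM averaged over the 6 samples, followed by SEH1L at 30.1, NPRL2 at 26.1, NPRL3 at 23.8 and WDR59 at 16.96 TPM. MIOS (7.37), WDR24 (6.19), DEPDC5 (5.96), SESN2 (5.25) and CASTOR1 (5.22) formed a low tier. SEC13 exceeded SEH1L by 5.73-fold to 8.62-fold in the 6 samples, and WDR59 exceeded MIOS by 1.79-fold to 3.17-fold, each without any overlap of the samples' ranges. No other neighbours in this order had separate ranges, and the 4 lowest after MIOS could not be ranked beyond their spread: WDR24 exceeded DEPDC5 in 3 of 6 samples and SESN2 exceeded CASTOR1 in 3 of 6. The 2 best expressed subunits, SEC13 and SEH1L, are those that also serve elsewhere, in the nuclear pore and, for SEC13, in the COPII coat of transport vesicles.

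**Figure D1:**
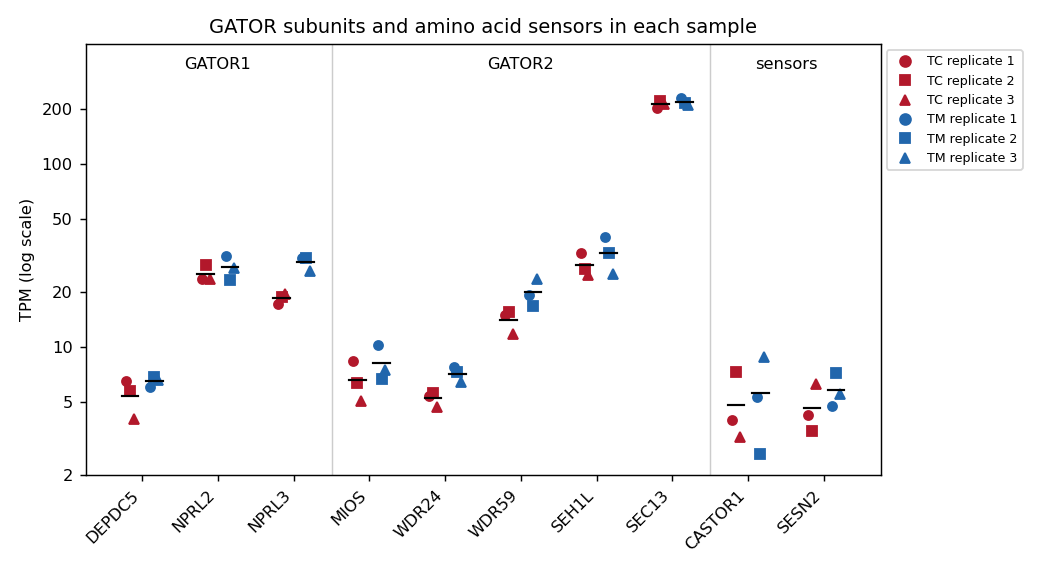
TPM on a log axis of each GATOR subunit and sensor in the 3 TC and 3 TM samples, with a horizontal bar at each group mean. NPRL3, WDR24 and WDR59 are the genes whose TC points all lie below their TM points, and SEC13 lies far above the rest at 201.4 to 227.0 TPM.

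None of the 10 genes was called between the zones (adjusted p from 0.113 to 0.919, limma). All 10 had a lower mean on the log2 scale in TC, with a median difference of -0.25 against -0.14 for all tested genes, but this shared direction depended on how the samples were scaled. It held for 6 of 10 genes after median-of-ratios rescaling, for 8 of 10 after quantile normalization and for 5 of 10 once the trend with transcript GC and length had been taken out of each sample, and the median of the 10 was then -0.073, -0.062 and -0.011. Leaving out TC replicate 3 moved the median to -0.12, with 9 of 10 lower, and without TM replicate 3 it was -0.31, also with 9 of 10 lower. At an unadjusted p under 0.05, 2 of the 10 were lower in TC (NPRL3 and WDR59), where 14.2% of all tested genes were, and 0 were higher, where 1.93% of all tested genes were. Under the 3 other scalings, in the order above, only NPRL3 of the 10 kept such a p, and the share of all tested genes lower in TC was 6.7%, 8.11% and 7.25%, that of genes higher in TC 6.81%, 5.32% and 6.03%. In 3 of the 10 every TC sample lay below every TM sample (NPRL3, WDR24 and WDR59), against 18.9% of all tested genes. None lay wholly above, against 3.28%.

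Of the GATOR1 genes, NPRL3 was the one whose TC and TM samples separated. NPRL3, which pairs with NPRL2 inside the complex, was measured at 17.1, 18.76 and 19.56 TPM in TC but at 30.66, 30.65 and 25.88 TPM in TM. The groups did not overlap. Group means were 18.5 ± 1.25 TPM (TC) and 29.1 ± 2.76 TPM (TM; SD, n = 3), 36.4% lower in the core. The difference was -0.62 (SE 0.15, 95% interval -0.98 to -0.27) with an unadjusted p of 0.00342 and an adjusted p of 0.113 by limma. The gene ranked 418 by p among all tested. Relative to the median of all genes the difference was -0.49. With median-of-ratios rescaling, quantile normalization and removal of the GC and length trend it came to -0.42, -0.45 and -0.38, and without TM replicate 3 to -0.70. It was negative with an unadjusted p under 0.05 in 17 of 17 alternative fits, and past the adjusted threshold in none of them.

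NPRL2 carries the catalytic arginine with which GATOR1 stimulates GTP hydrolysis by RRAGA and RRAGB. It was measured at 23.62, 28.02 and 23.38 TPM in TC and at 31.51, 23.16 and 26.93 TPM in TM, and the groups overlapped. The means were 25.01 ± 2.61 and 27.2 ± 4.18 TPM (SD, n = 3), a difference of -0.11 (SE 0.17, 95% interval -0.50 to 0.28, adjusted p = 0.809 by limma), which turned positive under all 3 other scalings. DEPDC5, the subunit through which GATOR1 contacts the Rag GTPases, was measured at 6.52, 5.75 and 4.02 TPM in TC and at 6.05, 6.83 and 6.61 TPM in TM. Only TC replicates 2 and 3 were below every TM sample. The means were 5.43 ± 1.28 and 6.50 ± 0.402 TPM (SD, n = 3), a difference of -0.24 (SE 0.23, 95% interval -0.76 to 0.28, adjusted p = 0.669 by limma). It was -0.072 without TC replicate 3, -0.063 with median-of-ratios rescaling and -0.052 with quantile normalization.

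The balance between NPRL3 and NPRL2 can be read within each sample, free of any scaling between samples. The TPM of NPRL3 divided by that of NPRL2 came to 0.724, 0.670 and 0.837 in the core samples, compared with 0.973, 1.32 and 0.961 in the margin samples. All 3 TC samples therefore had clearly less NPRL3 than NPRL2 transcript, and the TM samples had about as much or more. The log2 ratio, computed on TPM + 1, averaged -0.41 ± 0.16 over TC, compared with 0.099 ± 0.25 over TM (SD, n = 3); it is given without a test, as the pair was singled out after the values were seen. Against DEPDC5 the groups overlapped: NPRL3 exceeded it by 2.62-fold to 5.07-fold in the 6 samples, and NPRL2 by 3.39-fold to 5.82-fold.

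NPRL3 lies on chromosome 16 (84271 to 138860, minus strand, GENCODE v29 on GRCh38). Its RefSeq promoter window, 250 bases before the start site and 50 after, covers chr16:138624-138923 on the minus strand of GRCh38.p14. The window is shown because NPRL3 had the smallest p among the GATOR1 genes, and the capitals mark CACGTG, the E-box core bound by TFEB and MYC.
NPRL3: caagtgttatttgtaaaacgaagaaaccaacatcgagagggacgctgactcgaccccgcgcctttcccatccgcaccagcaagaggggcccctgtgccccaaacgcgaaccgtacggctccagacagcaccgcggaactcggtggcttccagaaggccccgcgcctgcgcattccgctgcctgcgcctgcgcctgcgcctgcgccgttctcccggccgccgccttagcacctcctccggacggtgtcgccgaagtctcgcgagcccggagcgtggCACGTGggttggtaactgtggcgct
The E-box begins 25 bases after the start site, within the transcribed part. Since CACGTG is its own reverse complement, it also holds ACGTG, the core of the HIF motif, on both strands. CACGTG was found in 7.43% of 27305 RefSeq promoter windows of this length and in 10.3% of the 10161 windows of tested genes. NPRL3 was the only one of the 9 members with a window to hold it, and also the only one without GGGCGG, the GC box bound by SP1. WDR24 has no entry in the promoter table.

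The GATOR2 subunits found in no other complex are MIOS, WDR24 and WDR59, β-propeller proteins with zinc-binding RING-like domains. WDR59 was measured at 14.95, 15.56 and 11.74 TPM in TC and at 19.26, 16.63 and 23.63 TPM in TM. The groups did not overlap, although TC replicate 2 and TM replicate 2 lay close together. The means were 14.1 ± 2.05 and 19.8 ± 3.54 TPM (SD, n = 3), 29.02% lower in TC. The difference was -0.46 (SE 0.20, 95% interval -0.91 to -0.0095), with an unadjusted p of 0.0463 and an adjusted p of 0.3004 by limma. It was -0.26 with median-of-ratios rescaling, -0.27 with quantile normalization and -0.29 with the GC and length trend removed. Without TM replicate 3, the highest sample, it was -0.33 with an unadjusted p of 0.145 in the same limma model. An unadjusted p under 0.05 was reached in 6 of 17 alternative fits.

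WDR59 is also on chromosome 16 (74871367 to 75000173, minus strand, GENCODE v29 on GRCh38). Its RefSeq promoter window is chr16:74985074-74985373 on the minus strand of GRCh38.p14, shown as that of the GATOR2 gene with the smallest p. The window lies inside the GENCODE gene model, which begins at 75000173 on this strand, so the RefSeq and GENCODE start sites differ. The capitals mark its 1 copy of GGGCGG.
WDR59: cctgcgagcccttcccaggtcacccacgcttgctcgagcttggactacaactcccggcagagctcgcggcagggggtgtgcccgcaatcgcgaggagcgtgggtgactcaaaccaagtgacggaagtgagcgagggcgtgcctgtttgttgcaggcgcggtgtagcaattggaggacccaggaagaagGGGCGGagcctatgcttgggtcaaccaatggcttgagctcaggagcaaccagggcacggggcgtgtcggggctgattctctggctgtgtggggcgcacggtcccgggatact
The GC box begins 62 bases before the RefSeq start site. At least 1 copy of GGGCGG on either strand was found in 8 of the 9 members' windows, with 6 copies in SEH1L, 4 each in DEPDC5 and MIOS, 3 in CASTOR1, 2 in SESN2 and 1 each in NPRL2, WDR59 and SEC13. It is a common motif, present in 44.6% of all windows and in 70.5% of those of tested genes.

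WDR24 was measured at 5.38, 5.64 and 4.71 TPM in TC and at 7.75, 7.26 and 6.42 TPM in TM, again without overlap. The means were 5.24 ± 0.480 and 7.14 ± 0.673 TPM (SD, n = 3), 26.6% lower in TC. Yet the difference of -0.38 (SE 0.20, 95% interval -0.84 to 0.079) did not pass the test, with an unadjusted p of 0.0924 and an adjusted p of 0.411 by limma. Relative to the median of all genes it was -0.25. It was -0.20 with median-of-ratios rescaling, -0.19 with quantile normalization and -0.043 with the GC and length trend removed. WDR24 has the most GC-rich transcripts of the 10 genes, with a median GC content of 64.0%.

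MIOS, the subunit through which CASTOR1 contacts GATOR2, was measured at 8.33, 6.39 and 5.1 TPM in TC and at 10.28, 6.69 and 7.45 TPM in TM. The groups overlapped through TC replicate 1. The means were 6.61 ± 1.63 and 8.14 ± 1.89 TPM (SD, n = 3), a difference of -0.27 (SE 0.25, 95% interval -0.84 to 0.31, adjusted p = 0.663 by limma).

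SEH1L, a subunit shared with the nuclear pore, was measured at 32.4, 26.61 and 24.65 TPM in TC and at 39.63, 32.73 and 24.86 TPM in TM, with means of 27.9 ± 4.03 and 32.4 ± 7.39 TPM (SD, n = 3). Its difference was -0.19 (SE 0.20, 95% interval -0.66 to 0.27, adjusted p = 0.702 by limma), and -0.37 without TM replicate 3. SEC13 was measured at 201.39, 218.46 and 212.58 TPM in TC and at 227.0, 213.51 and 208.55 TPM in TM. The means were 210.8 ± 8.67 and 216.4 ± 9.55 TPM (SD, n = 3), and the difference of -0.037 (SE 0.11, 95% interval -0.29 to 0.21, adjusted p = 0.909 by limma) was the closest to 0 among the 10 genes with TPM as deposited; it was 0.17 with median-of-ratios rescaling and with the GC and length trend removed. SEC13 also had the narrowest interval. The excess of SEC13 over WDR24 within a sample came to 37.4-fold, 38.7-fold and 45.1-fold in the core samples, compared with 29.3-fold, 29.4-fold and 32.5-fold in the margin samples, ranges that did not overlap. Against the mean log2 level of MIOS, WDR24 and WDR59 the groups overlapped, with SEC13 at 4.58 ± 0.22 in TC and 4.24 ± 0.11 in TM (SD, n = 3). These ratios are given without a test. WDR59 to WDR24 stayed between 2.29-fold and 3.68-fold, and SEH1L to WDR24 between 3.87-fold and 6.02-fold, with overlapping groups.

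**Figure D2:**
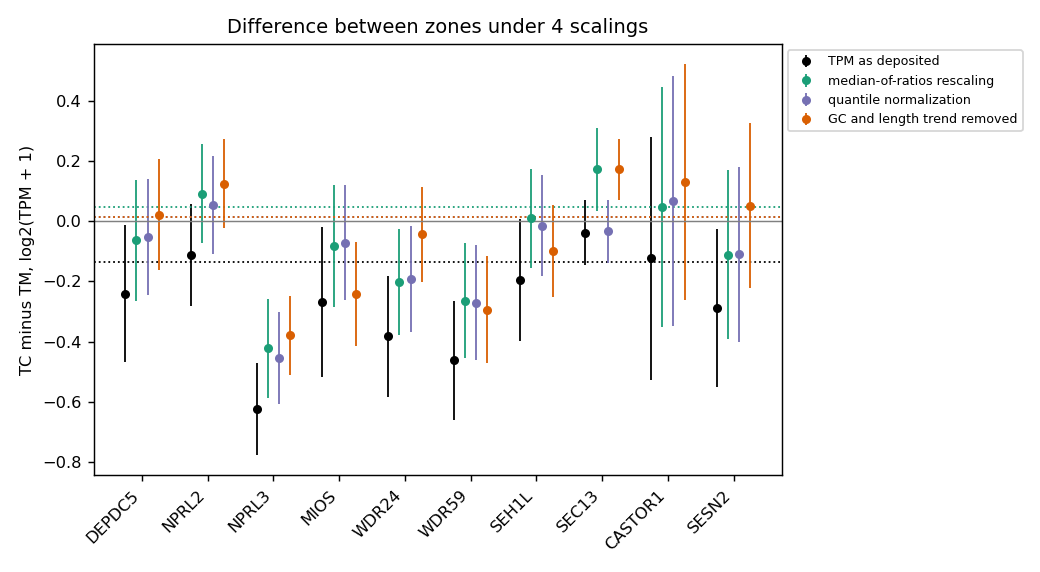
Difference between zones (TC minus TM, log2 of TPM + 1) for each gene, with bars of 1 SE, under the deposited scaling and 3 others; dotted lines mark the median of all tested genes under each scaling. NPRL3 and WDR59 are below 0 under each of these scalings, while NPRL2 moves from -0.11 to between 0.055 and 0.13.

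In both sensors the groups overlapped, as they did in DEPDC5, NPRL2, MIOS, SEH1L and SEC13. SESN2, which binds leucine and is itself a transcriptional target of ATF4 in the amino acid response, was measured at 4.24, 3.49 and 6.24 TPM in TC and at 4.74, 7.23 and 5.56 TPM in TM. The highest sample exceeded the lowest by 2.07-fold, close to the 2.02-fold of MIOS and the 2.01-fold of WDR59. The means were 4.66 ± 1.42 and 5.84 ± 1.27 TPM (SD, n = 3), a difference of -0.29 (SE 0.26, 95% interval -0.89 to 0.32, adjusted p = 0.657 by limma).

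CASTOR1, the arginine sensor, was measured at 4.0, 7.26 and 3.24 TPM in TC and at 5.36, 2.62 and 8.83 TPM in TM. It had the widest spread of the 10 genes, 3.37-fold from TM replicate 2 to TM replicate 3, so both extremes lay within the margin. The means were 4.83 ± 2.14 and 5.60 ± 3.11 TPM (SD, n = 3). The difference of -0.12 had an SE of 0.40 and a 95% interval from -1.05 to 0.80 (adjusted p = 0.919 by limma), the widest interval among the 10 genes. The 2 sensors did not keep a fixed proportion: the TPM of SESN2 divided by that of CASTOR1 ran from 0.481 in TC replicate 2 to 2.76 in TM replicate 2.

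The promoter window of SESN2 is shown for its place as an ATF4 target, and as that of the sensor with the smaller p. SESN2 lies on chromosome 1 (28259527 to 28282491, plus strand, GENCODE v29 on GRCh38), and the window is chr1:28259268-28259567 on the plus strand of GRCh38.p14. The capitals mark GGGCGG on the printed strand and, as CCGCCC, on the other.
SESN2: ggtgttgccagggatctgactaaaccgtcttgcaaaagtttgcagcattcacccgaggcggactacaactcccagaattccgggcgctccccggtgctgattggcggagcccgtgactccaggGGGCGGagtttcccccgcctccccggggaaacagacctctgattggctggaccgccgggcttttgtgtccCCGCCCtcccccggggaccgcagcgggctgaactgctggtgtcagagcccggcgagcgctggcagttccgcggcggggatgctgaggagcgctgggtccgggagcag
These GC boxes begin 127 and 57 bases before the start site. The core of the ATF4 response element, searched as TGATGNAA on both strands, was not found in the windows of SESN2 or of the other 8 members with an entry. It occurs in 3.67% of all windows and in 1.71% of those of tested genes.

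The proportion of inhibitor to activator overlapped between the zones. The mean log2 level of the 3 GATOR1 genes minus that of MIOS, WDR24 and WDR59 came to 0.73 ± 0.12 for TC, compared with 0.69 ± 0.11 for TM (SD, n = 3). Measured against the same GATOR2 level, SESN2 stood at -0.68 ± 0.53 in TC and -0.76 ± 0.40 in TM, and CASTOR1 at -0.67 ± 0.43 and -0.91 ± 0.65. In each of these 3 proportions the difference between zones was smaller than the SD within a zone when all samples were used. For CASTOR1 that difference, 0.25, became 0.59 without TM replicate 3, above the pooled SD of 0.55, and -0.056 without TM replicate 2. The signs also depended on the GATOR2 subunits used. With all 5 of them, the difference went from 0.045 to -0.056 for GATOR1 and from 0.083 to -0.019 for SESN2. For CASTOR1 it was then 0.15.

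**Figure D3:**
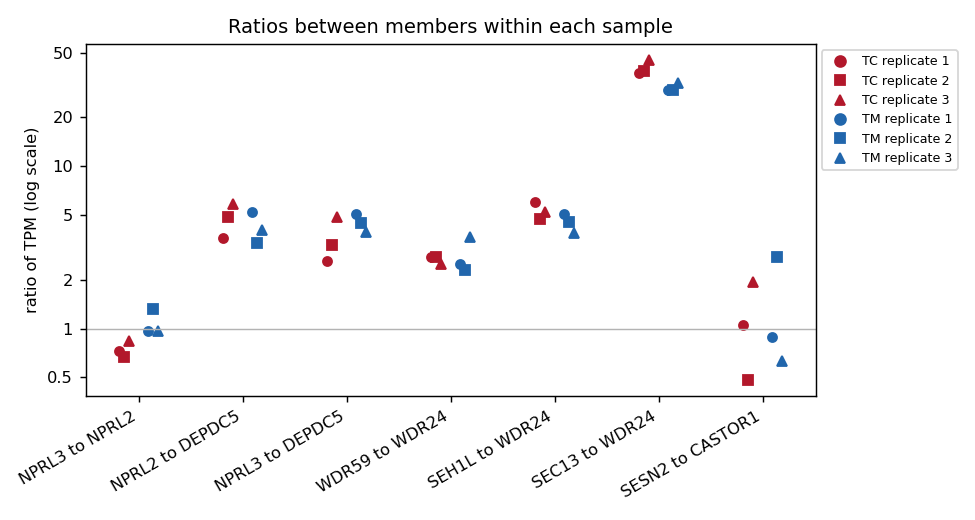
Ratios of TPM between pairs of GATOR subunits and between the sensors, computed within each of the 3 TC and 3 TM samples, on a log axis with a line at 1. The ratio of NPRL3 to NPRL2 lies between 0.670 and 0.837 in TC and between 0.961 and 1.32 in TM, and that of SEC13 to WDR24 is higher in each TC sample than in any TM sample; the other ratios overlap.

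Beyond the 10 genes, 80 genes that anchor, regulate or share subunits with them were followed as 8 lists, of which 77 genes were tested. SESN3, DEPTOR and ARG1 were too low to test; the last 2 are named outside the rule, after their values were seen. None of the 77 was called. Over all lists 53 genes had a lower and 24 a higher mean log2 level in TC, the median difference was -0.16 against -0.14 for all tested genes, and 12 were lower and 1 was higher at an unadjusted p under 0.05, beside 14.2% lower and 1.93% higher among all tested genes. This split also depended on the scaling: 35, 38 and 40 of the 77 were lower in TC under median-of-ratios rescaling, quantile normalization and removal of the GC and length trend, with 4 lower and 8 higher, 6 lower and 3 higher, and 6 lower and 9 higher at an unadjusted p under 0.05. Among all tested genes 6.7%, 8.11% and 7.25% were lower and 6.81%, 5.32% and 6.03% higher at such a p.

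The 3 genes followed of KICSTOR, the complex that tethers GATOR1 to the lysosome, had differences below 0 with a median of -0.30; 2 of the 3 were below 0 under each of the 3 other scalings. ITFG2 had values of 9.84, 10.74 and 14.67 TPM in TC and of 16.53, 19.22 and 16.83 TPM in TM. The groups did not overlap, and the difference of -0.55 (SE 0.20) had an unadjusted p of 0.0224 and an adjusted p of 0.220 by limma. It came to -0.36 under each of the 3 other scalings, where the unadjusted p was 0.153, 0.161 and 0.0987. KPTN (-0.30, adjusted p = 0.647) and KICS2 (-0.066, adjusted p = 0.939) overlapped between the zones in the same limma model.

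Among 10 other sensors and regulators, 9 were tested and 0 reached an unadjusted p under 0.05; 8 of the 9 were lower in TC, and 4 to 5 of the 9 under the 3 other scalings. The paralogs of the sensors were expressed at or below their level. SESN1 was measured at 3.35, 2.62 and 2.64 TPM in TC and at 2.84, 4.60 and 3.16 TPM in TM (difference -0.21, adjusted p = 0.734 by limma). SESN3 did not exceed 1.0 TPM in any sample. CASTOR2 was at 1.35 to 1.47 TPM in TC and 1.68 to 2.33 TPM in TM, without overlap (difference -0.30, adjusted p = 0.583 by limma); near-identical copies of this gene make the value uncertain. RNF167, a ubiquitin ligase that acts on SESN2, had the smallest p of this list (difference -0.17, unadjusted p = 0.195, adjusted p = 0.559 by limma, and positive under 2 of the 3 other scalings).

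The 12 Rag, Ragulator and folliculin genes, which receive the GATOR signal, were split 6 to 6 with a median difference of 0.046, and 9, 10 and 7 of them were higher in TC under median-of-ratios rescaling, quantile normalization and removal of the GC and length trend. With TPM as deposited 1 was lower and 0 were higher at an unadjusted p under 0.05, beside 14.2% lower and 1.93% higher among all tested genes. Under those scalings 1 was lower and 4, 1 and 4 were higher, where 6.7%, 8.11% and 7.25% of all tested genes were lower and 6.81%, 5.32% and 6.03% higher. The lower gene, FLCN, which activates RRAGC and RRAGD, was measured at 12.07, 13.75 and 13.52 TPM in TC and at 22.59, 18.64 and 36.38 TPM in TM. Its difference was -0.88 (unadjusted p = 0.00686, adjusted p = 0.141 by limma), and -0.61 without TM replicate 3. Of 8 tested genes of mTORC1 and of TSC, the complex that turns off its activator RHEB, 4 were lower in TC at an unadjusted p under 0.05, beside 14.2% of all tested genes, and the median was -0.38. Under each of the 3 other scalings 1 was lower and 1 was higher, beside 6.7% to 8.11% lower and 5.32% to 6.81% higher among all tested genes. TSC1 was measured at 6.15, 4.68 and 4.05 TPM in TC and at 10.03, 7.72 and 11.14 TPM in TM (difference -0.84, adjusted p = 0.141 by limma). TSC2 (-0.57, adjusted p = 0.191) and RPTOR, the subunit that defines mTORC1 (-0.60, adjusted p = 0.181), did not overlap between the zones either in these limma fits.

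SEH1L and SEC13 also belong to the nuclear pore Y complex. The other 8 genes of that complex had a median difference of -0.17 with 6 of 8 lower in TC, but 4 to 5 of 8 were lower under the 3 other scalings. Its genes averaged a median of 32.9 TPM, close to SEH1L at 30.1 TPM. In that list NUP98, whose precursor protein also yields the Y complex subunit NUP96, was measured at 32.14, 32.07 and 30.48 TPM in TC and at 41.51, 52.65 and 47.41 TPM in TM (difference -0.56, unadjusted p = 0.00418, adjusted p = 0.121 by limma). The COPII coat genes had a median of -0.16 over 11 genes, with 7 of 11 lower in TC and 4 to 6 of 11 under the other scalings. At an unadjusted p under 0.05, 3 were lower in TC, beside 14.2% of all tested genes. With median-of-ratios rescaling 1 was lower and 1 higher, and 1 was lower with quantile normalization and with the GC and length trend removed. Among all tested genes 6.7% to 8.11% were lower and 5.32% to 6.81% higher under these scalings. SEC31B, a low-expressed form of the coat partner of SEC13, was at 1.37, 0.71 and 1.06 TPM in TC and 4.46, 2.68 and 12.67 TPM in TM (difference -1.68, adjusted p = 0.133 by limma), and at -1.14 without TM replicate 3. SEC16A (-0.46, adjusted p = 0.163) and SEC24C (-0.41, adjusted p = 0.289) were the other 2 in that limma fit, and neither kept an unadjusted p under 0.05 under the 3 other scalings.

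Of the 13 genes of the ATF4 response, 7 had a lower and 6 a higher mean in TC, and 8 to 9 were higher under the other scalings. ATF4 was measured at 430.6, 437.8 and 505.3 TPM in TC and at 385.1, 496.2 and 323.6 TPM in TM (difference 0.21, adjusted p = 0.614 by limma). The difference was 0.42 with median-of-ratios rescaling, 0.46 (unadjusted p = 0.0344 by limma) with the GC and length trend removed, 0.13 with quantile normalization and 0.063 without TM replicate 3. DDIT3, the stress-induced transcription factor CHOP, was at 33.64, 36.4 and 33.72 TPM in TC and at 21.39, 26.4 and 31.13 TPM in TM. It was the only one of the 77 tested partner genes higher in TC at an unadjusted p under 0.05 with TPM as deposited, beside 1.93% of all tested genes, and the only gene of this list without overlap (difference 0.40, unadjusted p = 0.0467, adjusted p = 0.301 by limma). With median-of-ratios rescaling, quantile normalization and the GC and length trend removed, 2, 1 and 3 genes of this list were higher at such a p and 0 were lower. Among all tested genes 6.81%, 5.32% and 6.03% were higher there.

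Of 14 tested genes that move or use leucine and arginine, 11 had a lower mean in TC (8 to 9 under the other scalings). At an unadjusted p under 0.05, 2 were lower, beside 14.2% of all tested genes. The count was 1 lower with median-of-ratios rescaling, 2 lower with quantile normalization, and 1 lower and 1 higher with the GC and length trend removed. Under these scalings 6.7% to 8.11% of all tested genes were lower and 5.32% to 6.81% higher. SLC7A6, an exchanger of arginine and leucine, was measured at 10.74, 11.65 and 10.39 TPM in TC and at 23.81, 18.42 and 27.24 TPM in TM. Its difference of -1.003 (SE 0.19, unadjusted p = 0.00069, adjusted p = 0.0843 by limma) was -0.88 without TM replicate 3 and between -0.82 and -0.80 under the 3 other scalings. SLC7A1, the main arginine importer, was at 26.32, 24.19 and 24.47 TPM in TC and at 41.0, 39.42 and 30.79 TPM in TM (difference -0.54, adjusted p = 0.152 by limma). Of the 3 other scalings, only quantile normalization left it an unadjusted p under 0.05 (0.0244 by limma).

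**Figure D4:**
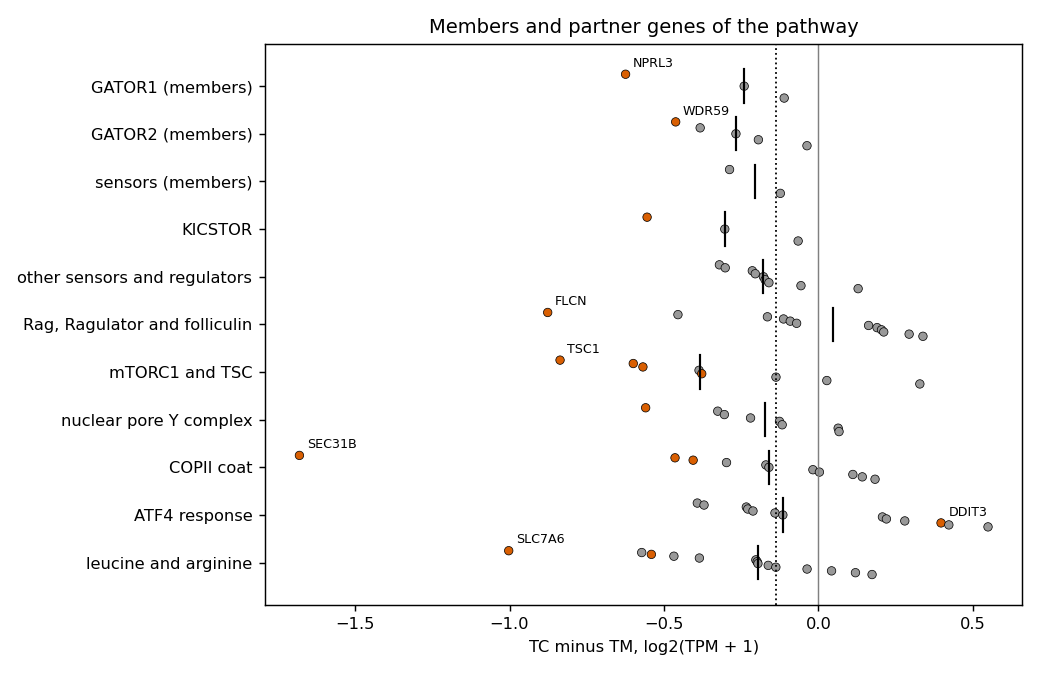
Difference between zones (TC minus TM, log2 of TPM + 1) for the 10 genes and the tested genes of the 8 partner lists; orange points have an unadjusted limma p under 0.05, black bars are list medians, the solid line is 0 and the dotted line is the median of all tested genes, -0.14. Orange points lie below 0 in each list that has any, except for DDIT3 at 0.40.

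The genes most like the members across the 6 samples were sought among tested genes of at least 10 TPM on average, by Pearson's r of log2(TPM + 1); with 6 points shared by 2 zones, these are descriptions. NPRL3 was followed most closely by PTBP1, a splicing regulator (r = 0.995), E2F4, a cell cycle repressor (r = 0.994), and SPTAN1, a spectrin of the membrane skeleton (r = 0.992). For WDR59 they were ABCB9 (r = 0.999), MAP3K12 (r = 0.998) and ZNF574 (r = 0.995). For SESN2 they were IRF7, an interferon regulator (r = 0.980), BCL7B (r = 0.977) and ENSG00000228830 (r = 0.9752).

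Several measured properties moved with the zones or touch these genes, and their part in the differences was not tested. Among all tested genes, those with a median transcript GC content of at least 55% had a median difference of -0.24, and 31.3% of them had every TC sample below every TM sample, against -0.011 and 5.75% for genes under 45%. Of the members, WDR24 (64.0%), CASTOR1 (62.3%), NPRL3 (60.3%), SESN2 (59.5%) and NPRL2 (55.04%) reach 55%. The TC and TM samples of WDR24 and NPRL3 separated, while those of CASTOR1, SESN2 and NPRL2 overlapped. WDR59, whose samples also separated, is at 51.4%, and MIOS, at 42.3%, is the only member under 45%. Genes for which at least 30% of annotated transcripts retain an intron had a median difference of -0.22, against -0.095 for genes with no such transcript. Among the members the share reaches 30% for NPRL2 (52.9%, difference -0.11), SEC13 (47.4%, difference -0.037) and WDR59 (43.5%, difference -0.46). In the others it runs from 0% in SESN2 to 28.6% in DEPDC5 and CASTOR1, with NPRL3 at 14.3%.

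Markers of host tissue, read on the human annotation, were higher in 2 of the 3 margin samples. The 10 skeletal muscle markers summed to 5.54 to 9.13 TPM in TC and to 181.2, 488.3 and 2.73 TPM in TM, and the 8 fibroblast markers to 67.4 to 229.1 TPM in TC and 481.4, 1022.5 and 90.7 TPM in TM. The macrophage markers summed to 95.02 to 107.7 TPM in all samples, those of endothelium to 2.94 to 6.78 TPM with EMCN at 0, those of erythroid cells to 0.29 to 6.93 TPM with HBA2 at 0, and those of adipocytes to 0.29 to 0.86 TPM with ADIPOQ and LEP at 0. In TM replicate 3 the muscle markers were lower than in any TC sample and the fibroblast markers lay within their TC range. That 1 sample also stood apart in other measures. NPRL3 was at 25.88 TPM there, against 30.66 and 30.65 TPM in TM replicates 1 and 2. WDR59 was at 23.63 TPM there, against 19.26 and 16.63 TPM. The part of host tissue in the differences between zones was not tested.

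Some members share bases with other genes. MPG runs opposite to NPRL3 and overlaps 6.85% of its exon bases; it was at 100.8, 118.4 and 116.2 TPM in TC and 100.1, 97.1 and 87.6 TPM in TM. In WDR24, 35.7% of exon bases overlap ENSG00000261659 on the opposite strand, which was at 0.11 to 0.61 TPM. In CASTOR1, 46.0% of exon bases belong also to the readthrough gene ENSG00000248751 on the same strand (0.79 to 1.12 TPM), and in DEPDC5 10.4% belong also to ENSG00000285404 (0.91 to 6.3 TPM), so the division of reads between them is uncertain. CYB561D2 lies opposite to NPRL2 over 10.8% of its exon bases at 30.5 to 41.8 TPM. The study's methods name an orientation mode for the alignment, and whether the gene values used the strand is not stated.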

How the data were processed

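The authors deposited 1 matrix of TPM values for the 6 samples. Per the study's methods and the submitters' processing notes, reads of TruSeq libraries passed through SeqPrep and Sickle for trimming, HISAT2 for alignment to hg38, StringTie for assembly and RSEM for gene abundances; the tools' versions, the annotation release and any separation of mouse from human reads were not given in the sources used here. The study used DESeq2, a count model, which TPM does not permit. TPM keeps no depth, so no counting interval is given.

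Groups and replicate numbers came from sample titles. Genes that reached 1 TPM in 3 or more of the 6 samples were tested with limma 3.58.1 in R 4.3.3 on log2(TPM + 1), with a mean-variance trend and no covariate, two-sided, with Benjamini-Hochberg adjustment over 13861 genes. Fold changes on this scale understate those of low genes. The 259 loci outside the annotation were left out. The fit was tested on simulated data.

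The 10 members and the partner lists were chosen with earlier results of these data known. Named genes are the members, KICSTOR subunits, SESN1, SESN3, CASTOR2, ATF4, up to 3 genes of each partner list with the smallest unadjusted p under 0.05 (or the 1 with the smallest), and the 3 genes most correlated with the leading member of each role; some genes are not reported here and were left out of the lists and their counts. Gene models are from GENCODE v29 on GRCh38, in which 96.3% of annotated genes were found, and promoters are from RefSeq on GRCh38.p14, with windows for 9 of the 10 members. Alternatives changed the pseudocount, low-value filter, scaling, annotation, block, variance moderation and samples; removal of the GC and length trend was added after seeing the data.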

Additional observations from a re-analysis of the deposited data

How the results depend on the processing

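Across 17 alternative fits, none of the 10 members and none of the partner genes was called by limma. The number of members at an unadjusted p under 0.05, 2 as reported, was 1 with no filter on low values, with median-of-ratios rescaling, with quantile normalization and with the GC and length trend removed, and 1 to 2 when each sample was left out in turn; where it was 1, that gene was NPRL3, and WDR59 was lost. Without a variance trend the number was 2, with WDR24 in place of WDR59. The partner genes gave 9 to 18 where 13 are reported. With the GC and length trend removed the median of the 10 members was -0.011; it was negative in all 17.

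Whether same-numbered samples share a mouse is not stated, and the data did not settle it: same-numbered samples correlated with r of 0.211, -0.121 and -0.165 after their group means were removed. With the replicate number as a block, 1 member kept an unadjusted p under 0.05 and 0 were called. Over all genes 1 gene was called with the block, against 19 without it, 47 with robust moderation, 32 with no filter and 4 to 26 in the other fits with all samples but the block; leaving out 1 sample gave 1 to 17. The cause was not tested.

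Signs turned positive, with no call, in 6 members. Median-of-ratios rescaling gave 0.092 for NPRL2, 0.0096 for SEH1L, 0.17 for SEC13 and 0.047 for CASTOR1. Quantile normalization gave 0.055 for NPRL2 and 0.067 for CASTOR1. Removal of the GC and length trend gave 0.022 for DEPDC5, 0.13 for NPRL2, 0.17 for SEC13, 0.13 for CASTOR1 and 0.051 for SESN2. CASTOR1 ranged from -0.50 to 0.22 when each sample was left out, and turned positive without TC replicate 3 (0.077) or TM replicate 3 (0.22). NPRL3, WDR59, WDR24 and MIOS stayed negative in all 17. With 3 samples a group, unknown depth and adjustment over all genes, differences of the size seen in most members could not be told from the spread between samples.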
